A study of Mus musculus with 216 samples.

Results

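The daily rhythm of gene expression in the hypothalamus of young mice was described from 12 RNA-seq libraries, 1 for each circadian time from 18 to 62 in steps of 4 h, out of 216 libraries in the series. The 12 were chosen by their labels alone (hypothalamus, young), and the time course covers 2 days. Circadian time counts hours of the internal day, and peak times below are given modulo 24. The lighting of the animals is not given in the sources used here.

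All animals were male C57B6/J-NIA mice with no further genetic change or treatment in the labels, and each library pooled 2 samples, so animals cannot be told apart within a library. Young mice were 6 months old. The libraries set beside them came from hypothalamus of aged (18 months) and old (27 months) mice and from heart, kidney and lung of young mice, with 12 libraries each at the same 12 times. Values are CPM, the count of a gene per 1 M counts of the library. There was 1 library per time, so p-values measure the spread of libraries around a fitted daily curve. For the rhythm tests within hypothalamus, this spread was estimated over young, aged and old libraries together, unless the young libraries alone are named.

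The circadian clock is a feedback loop in which the transcription factors BMAL1 (gene Arntl) and CLOCK activate genes through E-box sequences, among them the Per, Cry and Nr1d1 repressors, which then switch the activators off. PAR bZIP factors such as DBP carry the rhythm on to output genes through D-box sequences. The hypothalamus holds the suprachiasmatic nucleus, a small pair of cell groups that sets the time of the other tissues, along with many nuclei that govern hormones, feeding, temperature and sleep. A whole hypothalamus therefore mixes a few strongly cycling neurons with many other cells, and in such bulk RNA fewer cells of a type and less RNA per cell cannot be told apart.

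The hypothalamic origin in the labels was checked against marker genes. Avp, the vasopressin gene of the suprachiasmatic and magnocellular nuclei, ran from 265 to 544 CPM (median 316) and reached at most 0.305 CPM in the libraries of the other young tissues. The neuropeptide genes Oxt, Pmch and Hcrt also lay at 127, 326 and 83.8 CPM or more and at 0.149 CPM or less elsewhere. Total counts were 23.3 to 29.4 M per young library (median 26.8 M). Markers of neighbouring tissue varied between libraries. The summed level of 6 cortex and hippocampus genes was 253, 160 and 180 CPM at 42, 46 and 50 and at most 33.6 CPM at the other times. That of 6 pituitary genes was 601 CPM at 30 and 332 CPM at 54 and at most 87.4 CPM at the others, and that of 5 kidney genes was 273 CPM at 30 and at most 61.2 CPM elsewhere. Lung genes summed to at most 0.687 CPM.

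Young and aged hypothalamus libraries of the same circadian time resembled each other beyond the daily curve. After subtracting each gene's mean within its age, the correlation across 18808 genes between the young and the aged library of one time had a median of 0.41 (0.098 to 0.62), against -0.029 between libraries of different times. After subtracting the fitted cosine as well, the median was still 0.30. Between young and old libraries of one time it was 0.048 before and -0.051 after. These correlations are across genes, which are not independent replicates, and the sources used here do not say which animals or preparations the ages share. Agreement of aged with young libraries below is therefore set beside the same measure over all genes.

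A 24 h cosine was fitted to each gene, and edgeR's quasi-likelihood test of its cosine and sine terms called 26 of 18808 genes rhythmic in young hypothalamus (0.138%) at an adjusted p under 0.05. At an unadjusted p under 0.05 there were 1278 genes (6.79%), and under 0.01 there were 348 (1.85%). The spread in this test was that of young, aged and old hypothalamus libraries together. In edgeR's fit of the 12 young libraries alone 12 genes were called. Of the 26 genes, 23 were tested there and 9 passed. Single genes moved both ways: the adjusted p of Dbp was 0.0264 here and 0.000624 there, that of Plin4 0.00418 and 0.107. The amplitude, the distance from the mean to the peak on the log2 CPM scale, had a median of 0.77 over the 26 genes (0.32 to 2.38) and of 0.13 over all genes tested, though a gene needs a large amplitude to be called. The corresponding peak-to-trough folds ran from 1.56 to 27.2. Of the 26 genes, 1 peaked between 0 and 6, 16 between 6 and 12, 6 between 12 and 18, and 3 between 18 and 24, where the fitted peaks of all genes tested numbered 3203, 6421, 2851 and 6333. With the first and the second day fitted apart, the peak times of the days lay within 4 h of each other for all 26 genes, with a median gap of 0.79 h. The genes were called by a cosine fitted to both days together, so this agreement was in large part fixed by their selection.

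**Figure D1:**
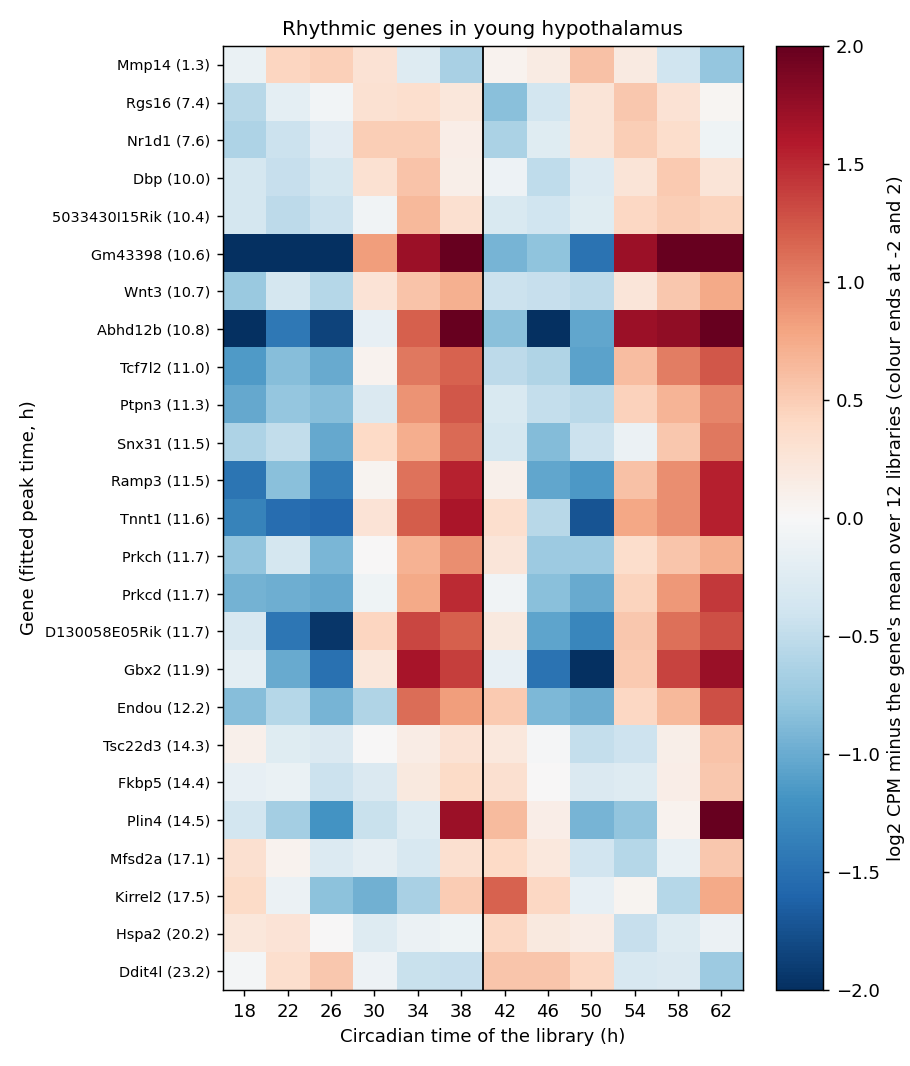
Levels of 25 rhythmic genes in the 12 young hypothalamus libraries (columns, circadian time in h; the black line divides the days), as log2 CPM minus the gene's mean over the libraries, ordered by fitted peak time from 1.32 (Mmp14) to 23.2 (Ddit4l). The block of 14 genes with peaks between 10 and 13 is high at 34, 38, 58 and 62 and low at 18 to 26 and 46 to 50.

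The number of calls depended on single libraries. It was 23 without the library at 18 and 21 without that at 54, 16 without 30 or without 46, 14 without 42, 6 without 22, 34 or 58, 5 without 50, 4 without 26, and 3 without 38 or without 62. Of the 26 genes, 3 passed in all 12 of these fits: Mmp14, Nr1d1 and D130058E05Rik. Without the libraries at 42, 46 and 50, where cortex genes were high, 6 genes were called, and without those at 30 and 54, where pituitary genes were high, 7 were; both alternatives were chosen after seeing the data.

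Among the clock repressors, 1 of 10 genes was called, and 9 of 10 had an unadjusted p under 0.05, where 0.138% and 6.79% of all genes did. The called gene was Nr1d1 (chr11:98767932-98775333, GRCm38), which encodes REV-ERB alpha, a nuclear receptor that represses Arntl. Its level from 18 to 38 was 49.8, 57.8, 65.2, 110, 107 and 81.9 CPM, and from 42 to 62 it was 47.9, 64.4, 92.1, 109, 98.0 and 71.4 CPM. The 30 and 34 libraries of the first day and the 54 and 58 libraries of the second day were the highest, and 18 and 42 the lowest. The fitted amplitude was 0.54 ± 0.067 (SE, n = 12 libraries), a 2.13-fold span, with a peak at 7.59 ± 0.47 h (edgeR, adjusted p = 0.00418). Thra shares exon bases with Nr1d1 on the opposite strand, and the use of strand in counting is not stated.

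The other repressors did not pass in this fit. Ciart, also known as Chrono, a repressor of the BMAL1-CLOCK pair, ran from 10.2 CPM at 42 to 19.2 CPM at 34 (amplitude 0.41 ± 0.044, peak 9.35 h, adjusted p = 0.0779). Per2, a core component of the repressor complex, stood at 20.6, 21.1, 17.2, 33.8, 35.4 and 44.1 CPM on the first day and at 23.7, 29.5, 30.8, 39.5, 42.1 and 41.97 CPM on the second (amplitude 0.49 ± 0.13, peak 10.6 h, adjusted p = 0.376). Its lowest library was that at 26 on the first day and that at 42 on the second. Per1 and Per3, its paralogs, had amplitudes of 0.49 and 0.42 and peaks at 9.54 and 10.2 h (adjusted p = 0.314 and 0.473). Bhlhe40 and Bhlhe41, E-box repressors also called DEC1 and DEC2, peaked at 9.29 and 10.2 h with amplitudes of 0.22 and 0.19. Cry1 peaked last, at 13.7 h (amplitude 0.18), while Cry2 peaked at 10.1 h (0.16) and Nr1d2, the paralog of Nr1d1, at 11.9 h (0.16). The median amplitude of the 10 repressors was 0.31. By DESeq2's likelihood ratio test, which called 109 genes in all, Ciart, Bhlhe40, Bhlhe41 and Cry1 passed (adjusted p = 0.000732, 0.00512, 0.0156 and 0.039). Ciart also passed in edgeR's fit of the 12 young libraries alone (adjusted p = 0.0208). The Per genes, Cry2 and Nr1d2 passed in neither.

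Of the 6 clock activators none was called. Arntl, which encodes BMAL1, ran from 25.2 CPM at 58 to 38.5 CPM at 22, with an amplitude of 0.21 ± 0.047 and a peak at 23.6 h, on the other side of the day from the repressors (adjusted p = 0.597). Clock, its partner, stayed between 88.2 and 109 CPM in all 12 libraries, with an amplitude of 0.016 ± 0.040, and Rorb, a nuclear receptor that can activate Arntl, had an amplitude of 0.046. Npas2, a paralog of Clock, had an amplitude of 0.18 and a peak at 20.6 h. Rora, a nuclear receptor related to Rorb, had the largest amplitude of the list, 0.51 ± 0.068 with a peak at 10.8 h (adjusted p = 0.332) and a level from 56.6 CPM at 18 to 119 CPM at 38. Arntl passed by DESeq2 (adjusted p = 0.0201). Rora passed in edgeR's fit of the 12 young libraries alone (adjusted p = 0.017), and the other activators passed in neither.

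Of the 4 PAR bZIP factors 1 was called, where 0.138% of all genes were. Dbp (chr7:45705088-45710203, GRCm38) stood at 79.8, 75.0, 79.9, 128, 149 and 108 CPM from 18 to 38 and at 91.8, 70.8, 84.3, 125, 148 and 122 CPM from 42 to 62. Its 6 highest libraries were those at 30, 34, 38, 54, 58 and 62. It had an amplitude of 0.51 ± 0.036, a 2.04-fold span, and the closest cosine fit of the 26 genes (share of variance 0.958), with a peak at 9.98 ± 0.27 h (adjusted p = 0.0264). Hlf and Tef, which bind the same D-box, had amplitudes of 0.21 and 0.080, and Nfil3, the D-box repressor, had 0.25 with a peak at 21.2 h (adjusted p = 0.338). Nfil3 passed by DESeq2 (adjusted p = 0.00254), while Hlf and Tef did not. Sphk2 shares exon bases with Dbp on the opposite strand.

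**Figure D2:**
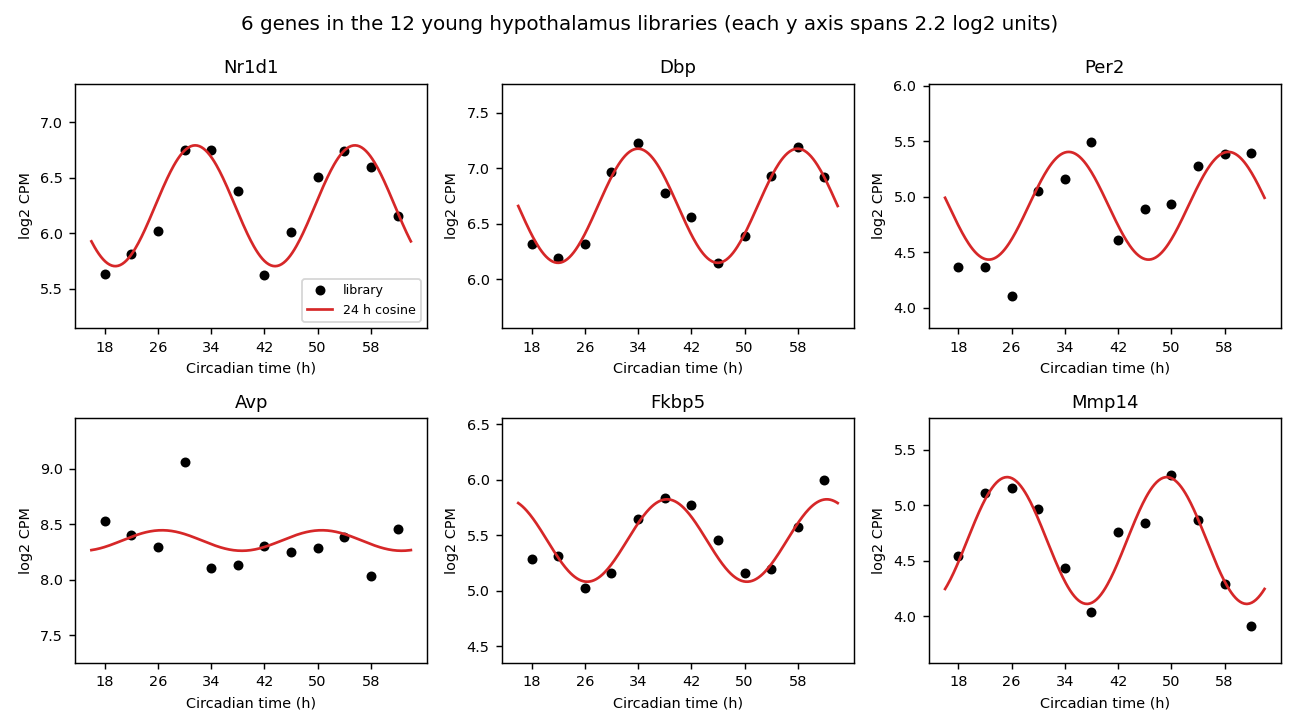
log2 CPM of Nr1d1, Dbp, Per2, Avp, Fkbp5 and Mmp14 in each young hypothalamus library (points) with the fitted 24 h cosine (line) against circadian time in h. Nr1d1, Dbp, Fkbp5 and Mmp14 were called rhythmic, while Per2 (adjusted p = 0.376) and Avp (0.984) were not, and the Avp library at 30 stands above the others.

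Promoter sequence was examined for the genes of the clock lists. RefSeq windows (250 bases before to 50 after each start, GRCm38.p6) existed for 17 of the 20 genes. Searched on both strands, the E-box CACGTG was present in a window of 5 of these 17 genes, where 7.15% of 32851 windows held it, and the D-box TTATGNAA in a window of 2, where 3.38% did. Some of the genes had more than 1 window, so these counts per gene and shares per window are not like for like. The windows of Dbp and Nr1d1 held neither. Ciart, the clock gene of smallest p whose window held an E-box, and Per1 are shown. Per1 had 2 windows, and the window shown held both motifs. The sequences run 5′ to 3′, up to the first annotated exon base in the window, with the motifs in capitals. They lie at chr3:95882252-95882478 (minus strand) and chr11:69098699-69098947 (plus strand).
Ciart: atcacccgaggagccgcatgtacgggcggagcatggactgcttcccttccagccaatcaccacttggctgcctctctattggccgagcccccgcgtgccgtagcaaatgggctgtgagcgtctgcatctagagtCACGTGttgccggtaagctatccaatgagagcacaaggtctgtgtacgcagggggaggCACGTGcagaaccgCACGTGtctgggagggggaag
Per1: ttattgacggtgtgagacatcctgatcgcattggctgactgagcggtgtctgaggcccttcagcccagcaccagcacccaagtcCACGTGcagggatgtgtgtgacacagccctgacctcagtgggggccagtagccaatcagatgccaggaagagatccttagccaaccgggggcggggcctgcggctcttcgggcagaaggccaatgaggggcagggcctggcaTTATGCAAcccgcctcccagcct
The Ciart stretch holds 3 copies of the E-box, and the Per1 stretch 1 E-box and, nearer the start, 1 D-box. Among the called genes, 19 of 26 had a window, of which 3 had an E-box and 1 a D-box. A match describes the letters alone.

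Of 12 listed genes of the suprachiasmatic nucleus 1 was called, Rgs16, a regulator of G protein signalling. It ran from 22.3 CPM at 42 to 61.2 CPM at 54 and peaked at 7.40 ± 0.65 h (amplitude 0.50, adjusted p = 0.0392), but passed in none of the 12 fits that left out 1 library. Avp was flat apart from one library: it was 544 CPM at 30 and between 265 and 370 CPM at the other times (amplitude 0.092 ± 0.12, adjusted p = 0.984). Vip, the peptide of the ventral suprachiasmatic neurons, lay between 13.9 and 24.4 CPM (amplitude 0.23, peak 20.5 h, adjusted p = 0.808). Prok2, a secreted output signal of the nucleus, had an amplitude of 0.66 around a mean of 1.94 CPM with a peak at 2.86 h (adjusted p = 0.454), and its receptor gene Prokr2 peaked at 21.6 h (0.39). The peptide genes Grp and Nms had amplitudes of 0.36 and 0.41 and peaks at 0.32 and 1.12 h. Of the regulators of these neurons, Six6, Lhx1 and Zfhx3 had amplitudes of 0.30, 0.17 and 0.46, and the receptor Vipr2 and the synaptotagmin Syt10 had 0.29 and 0.17, with adjusted p between 0.719 and 0.927. In all, 1 of the 12 was called and 7 had an unadjusted p under 0.05, where 0.138% and 6.79% of all genes did.

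The amplitude of the clock genes was set against that in heart, kidney and lung of young mice, in a fit of all 72 young libraries. The 20 clock genes had a median amplitude of 0.21 in hypothalamus, 1.02 in heart, 1.11 in kidney and 1.04 in lung, where the medians over all genes were 0.13, 0.17, 0.13 and 0.13. The amplitude was lower in hypothalamus for 19 of the 20 genes against each tissue, and the median ratio of hypothalamus to the other tissue was 0.24, 0.19 and 0.19. The difference in rhythm was called by edgeR's quasi-likelihood test for 15 clock genes against heart, 16 against kidney and 12 against lung, where 1.59%, 1.18% and 0.372% of 20682 genes were called.

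Single genes show the size of this gap. Dbp had an amplitude of 0.51 in hypothalamus and of 2.08 ± 0.12 in heart, 2.73 ± 0.057 in kidney and 2.86 ± 0.20 in lung (adjusted p = 4.86e-05, 1.94e-09 and 1.96e-10), while its peak lay at 9.99 h in hypothalamus and at 10.9, 9.59 and 10.04 h in the others. Arntl had 0.21 in hypothalamus against 2.28, 2.39 and 2.08, with adjusted p of 1.68e-06, 6.03e-08 and 1.78e-06. Nr1d1 had 0.54 against 1.60, 1.97 and 2.97, with a peak at 7.58 h against 7.65, 6.89 and 8.01 h. Per2 peaked earlier in hypothalamus, at 10.6 h, than in heart (13.7 h), kidney (14.4 h) and lung (13.8 h), and its rhythm differed from each (adjusted p = 0.0029, 0.00801 and 0.0265, for amplitude and time together). Cry1 likewise peaked at 13.8 h against 18.4, 17.8 and 18.2 h. Rora was the exception, with an amplitude of 0.50 in hypothalamus and 0.20, 0.14 and 0.30 in the others, and the difference was called against kidney alone (adjusted p = 0.0997, 0.00653 and 0.446). Rora was at 85.1 CPM or more in the libraries at 30, 34, 38, 54, 58 and 62 and at 70.7 CPM or less in the others, as the thalamus genes described further on were high and low, and its amplitude with their mean as a covariate was 0.10 ± 0.060. That mean itself followed the cosine (share of variance 0.862, peak 11.5 h), so the covariate and the daily terms largely coincide. A part of thalamus tissue in the Rora rhythm was not tested. Bhlhe40, Per1 and Rorb differed from none of the 3 tissues past the threshold.

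**Figure D3:**
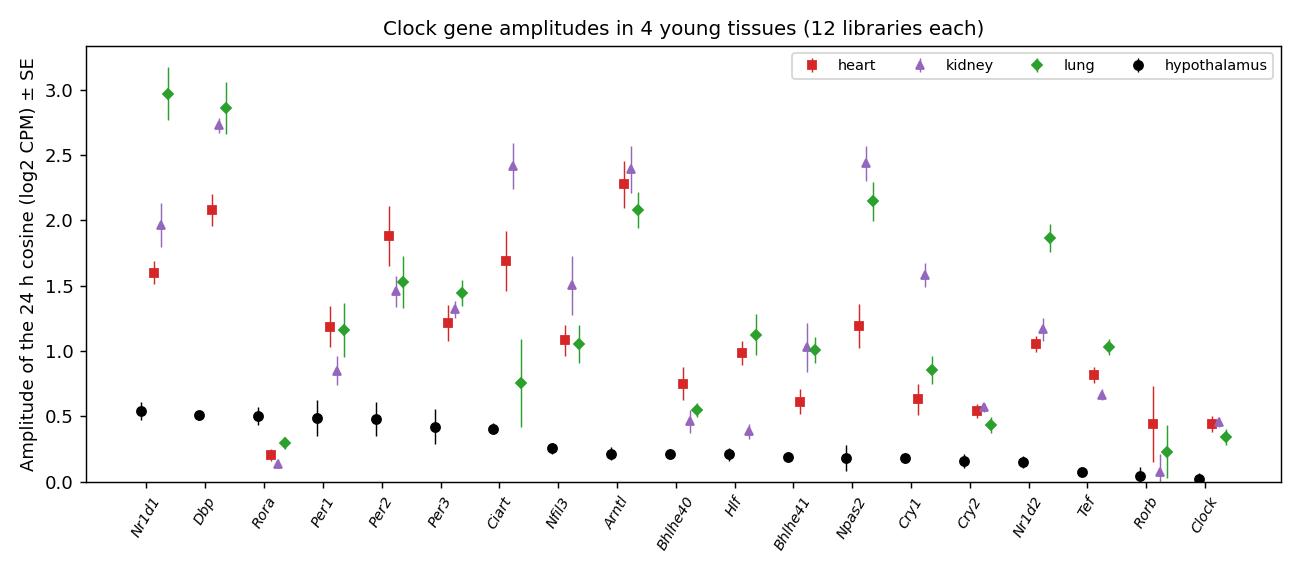
Amplitude of the 24 h cosine (log2 CPM ± SE) of 19 clock genes in young hypothalamus (black), heart, kidney and lung, 12 libraries each. Hypothalamus lies lowest of the 4 tissues for all genes shown but Rora, where it is highest, and its largest value is 0.54, for Nr1d1.

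The largest group of called genes peaked between 10 and 13: 14 of the 26. Of the 348 genes at an unadjusted p under 0.01, 31, 27 and 13 peaked in the hours starting at 10, 11 and 12. The group of 14 held 5 of the 9 genes on a list of thalamus markers, and the other 4 had unadjusted p from 1.95e-04 to 0.0209. The list was chosen with earlier results of these data known, so this overlap is not independent of the calls. The median amplitude of the 9 genes was 1.20. Gbx2 (chr1:89927956-89931179, GRCm38), a homeobox factor of thalamic neurons, stood at 2.84, 1.62, 1.11, 3.902, 10.47 and 8.51 CPM on the first day and at 2.82, 1.12, 0.497, 4.87, 8.60 and 11.1 CPM on the second (amplitude 1.82 ± 0.18, peak 11.9 ± 0.37 h, adjusted p = 0.0323). Tcf7l2, a Wnt pathway transcription factor, ran from 17.3 CPM at 18 to 90.6 CPM at 62 (amplitude 1.20, adjusted p = 0.0349). Prkcd, a protein kinase C isoform, ran from 14.6 CPM at 26 to 82.1 CPM at 38 (1.21, adjusted p = 0.0429). Ramp3, a modulator of peptide hormone receptors, had an amplitude of 1.39 (adjusted p = 0.0349), and Tnnt1, a troponin used as a thalamic marker, 1.55 (adjusted p = 0.0264). Ntng1, Synpo2, Lef1 and Slitrk6 had amplitudes of 0.56, 0.79, 0.65 and 0.44, and all 9 genes peaked between 10.3 and 12.05 h.

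The thalamus list moved with these results as a whole, and the labels do not describe how the hypothalamus was dissected, so a rhythm within hypothalamic cells and a varying share of thalamus cannot be told apart for these genes. Its summed level in young libraries was 116, 143, 125, 195, 320 and 411 CPM from 18 to 38 and 158, 132, 114, 264, 326 and 399 CPM from 42 to 62. The 6 libraries at 30, 34, 38, 54, 58 and 62 lay at 195 CPM or more and the other 6 at 158 CPM or less, and none of the 9 genes was at 0 in all young libraries. In aged libraries the sum was 113, 115, 121, 422, 207 and 365 CPM on the first day and 132, 125, 112, 261, 267 and 219 CPM on the second, high at the same times. With the mean log2 CPM of the list as a covariate, an alternative chosen after seeing the data, edgeR called 0 genes in young hypothalamus, with 595 genes at an unadjusted p under 0.05. Mmp14 and Nr1d1 then had an adjusted p of 0.0565, and each of the called thalamus genes, which the covariate contains, 0.999952. The mean of the list itself followed the cosine in young libraries (share of variance 0.862, peak 11.5 h), so the covariate and the tested terms largely coincide, and a lost call may come with or without a smaller amplitude. By least squares, the amplitude with the covariate was 0.50 ± 0.095 for Dbp, 0.47 ± 0.075 for Nr1d1 and 0.39 ± 0.12 for Mmp14, against 0.51, 0.54 and 0.57 without it. For Wnt3, Prkch and Endou it was 0.17 ± 0.084, 0.048 ± 0.16 and 0.20 ± 0.22, against 0.68, 0.81 and 1.05, while D130058E05Rik had 1.17 ± 0.38 against 1.55. Fitted peaks could move too. With the covariate those of Wnt3, Prkch and Endou lay at 3.12, 20.2 and 15.7 h. The amplitudes of Prkch and Endou were then below their SE, so their peak times say little. Those of Dbp, Nr1d1, Mmp14 and D130058E05Rik lay at 9.95, 6.31, 2.32 and 11.8 h. Plin4 kept an amplitude of 0.99 ± 0.33 but its peak moved from 14.5 to 19.7 h, and that of Fkbp5 from 14.4 to 18.4 h. DESeq2 was not run with this covariate.

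**Figure D4:**
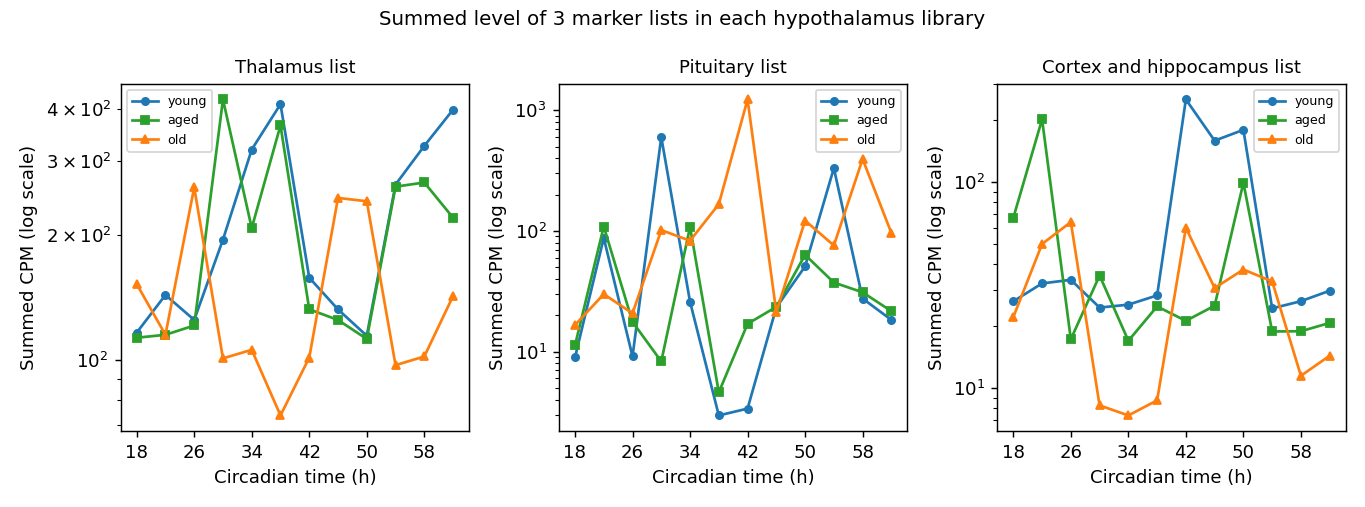
Summed CPM (log scale) of the thalamus, pituitary, and cortex and hippocampus marker lists in each hypothalamus library against circadian time, for young, aged and old mice. The thalamus sum of young and aged libraries is high at 30 to 38 and 54 to 62, while that of old libraries is high at 26, 46 and 50.

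The other 9 genes of this group were on no thalamus list. Gm43398, a transcript of unknown coding status, had the largest amplitude of all called genes (2.38 ± 0.42, 0.369 to 14.8 CPM), followed by Abhd12b (2.14 ± 0.38, 0.221 to 7.72 CPM), a predicted hydrolase. D130058E05Rik (1.55 ± 0.14, adjusted p = 0.00418) shares exon bases with Gbx2 on the opposite strand, so reads of the pair may not be told apart. Wnt3, a Wnt ligand, had an amplitude of 0.68 and a peak at 10.7 h (adjusted p = 0.0292), and Prkch, another protein kinase C isoform, had 0.81 and 11.7 h (0.0349). Ptpn3, a tyrosine phosphatase, had 0.95 (adjusted p = 0.0464), Snx31, a sorting nexin, 0.91 (0.0214), Endou, an endoribonuclease, 1.05 (0.0482) and the noncoding 5033430I15Rik 0.55 (0.0349). Each of the 9 was higher in all 4 libraries at 34, 38, 58 and 62 than in any at 18, 22, 26, 42, 46 and 50. Gm43398 and Ptpn3 share exon bases with other annotated genes on the opposite strand, as do Ramp3, Rgs16 and Plin4.

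Genes that respond to glucocorticoids, the adrenal hormones whose blood level has a daily peak, formed the next group. Of 14 listed genes 3 were called (0.138% of all genes were), 8 had an unadjusted p under 0.01 (1.85% of all genes did), and the median amplitude was 0.37. Plin4, a lipid droplet protein (chr17:56100591-56109803, GRCm38), stood at 6.23, 5.09, 3.47, 6.00, 6.69 and 26.1 CPM on the first day and at 12.2, 8.84, 4.19, 4.75, 8.53 and 34.9 CPM on the second. The libraries at 38 and 62 were far above the rest, so a cosine described it less closely (amplitude 1.16 ± 0.26, peak 14.5 ± 0.84 h, adjusted p = 0.00418), and without the library at 62 its adjusted p was 0.0996. Fkbp5, a cochaperone that restrains the glucocorticoid receptor (chr17:28399094-28517527, GRCm38), ran from 32.6 CPM at 26 to 63.9 CPM at 62 (amplitude 0.37 ± 0.066, peak 14.4 h, adjusted p = 0.0323). Tsc22d3, which encodes the anti-inflammatory factor GILZ, ran from 79.1 CPM at 50 to 162 CPM at 62 (0.38 ± 0.060, 14.3 h, adjusted p = 0.0349). Fkbp5 and Tsc22d3 passed in 3 of the 12 fits that left out 1 library.

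Other members of the list did not pass. Hif3a had an amplitude of 1.08 and a peak at 12.7 h (adjusted p = 0.061), Zbtb16 0.60 and 13.7 h (0.309), and the kinase Sgk1 0.56 and 10.97 h (0.299). Pdk4, which limits glucose oxidation, and Cdkn1a, a cell cycle inhibitor, peaked at 19.97 and 20.3 h. The metallothioneins Mt1 and Mt2 had amplitudes of 0.18 and 0.17 (adjusted p = 0.895 and 0.90).

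Of the called genes that peaked after the glucocorticoid group 4 are described. Mfsd2a, the lipid transporter of the blood-brain barrier, ran from 17.1 CPM at 54 to 36.1 CPM at 62 (amplitude 0.45 ± 0.062, peak 17.1 h, adjusted p = 0.0323). Kirrel2, an adhesion protein, peaked at 17.5 h (0.73 ± 0.18, adjusted p = 0.0349). Hspa2, of the 70 kDa heat shock family, ran from 41.7 CPM at 54 to 72.5 CPM at 42 and peaked at 20.2 h (0.32 ± 0.048, adjusted p = 0.046), and passed in none of the fits that left out 1 library. Ddit4l, an inhibitor of mTOR signalling, peaked at 23.2 h (0.56 ± 0.094, adjusted p = 0.0375).

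Mmp14 had the smallest p of all genes. It encodes a membrane-bound matrix metalloproteinase (chr14:54431612-54445364, GRCm38). Its level was 23.3, 35.4, 35.8, 31.8, 21.4 and 15.999 CPM from 18 to 38 and 26.2, 28.5, 39.0, 29.8, 19.6 and 15.0 CPM from 42 to 62. The libraries at 26 and 50 were the highest of their days and those at 38 and 62 the lowest. The amplitude was 0.57 ± 0.062, a 2.21-fold span, and the peak fell at 1.32 ± 0.41 h (adjusted p = 6.95e-05). Its adjusted p was at most 0.00229 when any 1 library was left out, and 0.00975 in a fit of the 12 young libraries alone.

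None of the 12 heat shock and cold shock genes was called, while 8 had an unadjusted p under 0.05, where 0.138% and 6.79% of all genes did. The 10 heat shock genes all peaked between 19.4 and 21.3 h. Hspa1b, an inducible HSP70, ran from 3.92 CPM at 34 to 11.1 CPM at 42 (amplitude 0.64, adjusted p = 0.0779), and Dnajb1, its HSP40 partner, had 0.25 (adjusted p = 0.119). The cold-induced RNA-binding genes peaked on the other side of the day, Rbm3 at 12.9 h (0.31 ± 0.033, adjusted p = 0.0952) and Cirbp at 9.65 h (0.32, adjusted p = 0.679). The summed level of the list was 5162, 4618 and 4904 CPM at 18, 22 and 26 and 5171 CPM at 42, but 3795 and 3579 CPM at 46 and 50, so the 2 days differed. The aged libraries had the same shape, with 4714, 4632, 4893 and 4965 CPM at 18, 22, 26 and 42 and 3759 and 3656 CPM at 46 and 50.

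**Figure D5:**
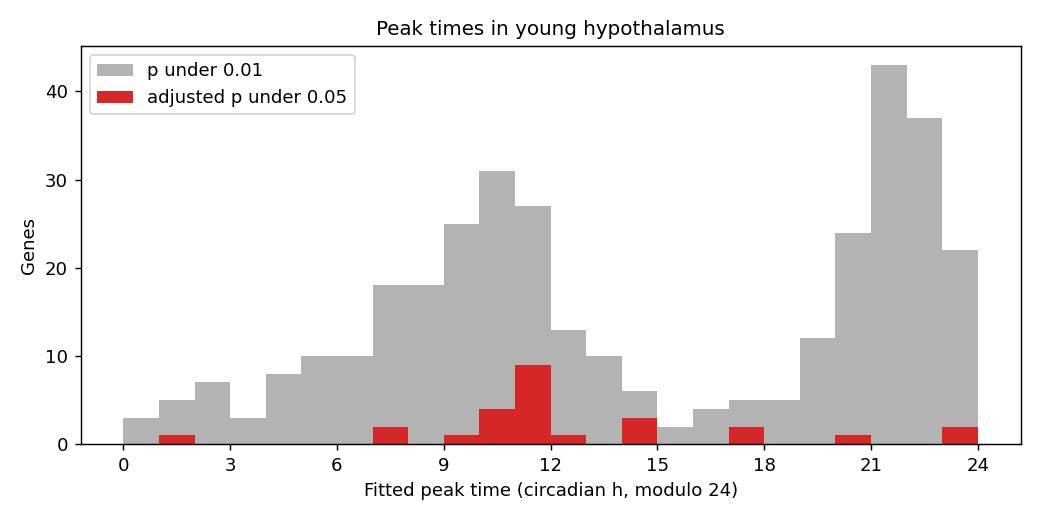
Fitted peak times (circadian h, modulo 24) of the 348 genes with an unadjusted p under 0.01 (grey) and of the 26 genes called at an adjusted p under 0.05 (red) in young hypothalamus, in bins of 1 h. The grey bars have one rise at 9 to 12 h and a higher one at 20 to 24 h, where 43 genes fall between 21 and 22, while the red bars are highest at 10 to 12 h.

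Beyond the called genes, the 348 genes with an unadjusted p under 0.01 were placed by peak time. Their number was 36 between 0 and 6, 129 between 6 and 12, 40 between 12 and 18 and 143 between 18 and 24, so that the second and the last window held 78.2% of them, against 67.8% of all genes tested. In the last window 3 genes were called. Among genes at a mean of 10 CPM or more, those of smallest p there that did not pass were Lamp5, a lysosomal membrane protein of interneurons (peak 20.2 h, amplitude 0.48, adjusted p = 0.0682), the cochaperone Stip1 (21.5 h, 0.26, 0.0873), 2810006K23Rik (21.5 h, 0.33), Dnajb1 and Gm10561 (22.8 h, 0.48). Between 6 and 12 they were the planar polarity gene Vangl1 (11.03 h, 0.37, 0.0682), Ccdc136 (11.6 h, 0.32), Ciart, Ntng1 and the thioredoxin reductase Txnrd3 (8.14 h, 0.28). Between 12 and 18 they were the transaminase Gpt2 (16.1 h, 0.24, 0.0952), Rbm3, Cables1 (14.3 h, 0.26), the folate enzyme Mthfd1l (13.3 h, 0.22) and the corepressor Hr (12.2 h, 0.54). Between 0 and 6 they were Aif1l (2.002 h, 0.33, 0.0833), the immediate early gene Btg2 (1.92 h, 0.32), the pituitary hormone genes Gh and Prl, and Fabp7, a fatty acid binding protein of astrocytes (2.36 h, 0.59).

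Other gene lists gave few or no calls. Of all genes, 0.138% were called and 6.79% had an unadjusted p under 0.05. Of 19 measured hypothalamic neuropeptide genes none was called and 1 had an unadjusted p under 0.05, which was Pomc, the precursor of melanocortins (39.3 to 238 CPM, adjusted p = 0.721). Oxt and Pmch had amplitudes of 0.062 and 0.044. Kiss1 had no count in any young library. Of 11 immediate early genes, which report recent neuronal activity, none was called and Btg2 alone had an unadjusted p under 0.05, with Fos at an amplitude of 0.42 (adjusted p = 0.804). The 4 measured pituitary genes had amplitudes from 0.67 to 2.86 and peaks from 4.46 to 5.87 h, and their high libraries were those at 30 and 54, which share a time of day. Gh was 489 CPM at its highest and 0.036 CPM at its lowest (adjusted p = 0.296), and Pomc, which the pituitary also makes, was highest in the same window (peak 4.39 h). Cortex and hippocampus genes (0 of 6 called, 4 under an unadjusted 0.05) and striatum genes (0 of 7, 4) peaked between 16.4 and 23.8 h. Among choroid plexus, blood and endothelial genes none was called, with 2 of 6, 0 of 5 and 1 of 4 under 0.05. Oligodendrocyte, astrocyte and microglia genes had 0 of 6, 0 of 5 and 0 of 5 under 0.05, with median amplitudes of 0.070, 0.13 and 0.19.

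The hypothalamus of aged mice was compared with that of young mice in the same fit. Of the 26 genes 7 were also called in aged libraries, where 12 genes in all were (0.0638%). No gene differed in rhythm between aged and young (0%) by edgeR or DESeq2. By edgeR 100 of the 18808 genes had an unadjusted p under 0.05, fewer than that threshold would give with no difference at all. Young and aged libraries of one time resembled each other beyond the daily curve, and the spread was estimated with the old libraries included. The 0 calls therefore do not show that the rhythms are alike. The aged peak lay within 3 h of the young peak for 26 of 26 called genes and for 309 of the 348 (88.8%), but also for 60.3% of all 18808 genes. Nr1d1 had an amplitude of 0.53 and a peak at 7.60 h in aged libraries, Dbp 0.52 and 8.98 h, Mmp14 0.49 and 0.97 h, and Plin4 1.30 and 15.1 h. Gbx2 had 1.64 and 10.01 h.

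Old hypothalamus differed from young for some of these genes. Of the 26, 6 were called in old libraries, where 96 genes were (0.51%), and 9 differed in rhythm between old and young, where 23 genes did (0.122%). DESeq2 called 137 genes for this difference, and edgeR 15 without the young library at 38. All 9 were among the 14 genes that peaked between 10 and 13: Gbx2, D130058E05Rik, Tnnt1 and Tcf7l2 (adjusted p = 0.0103), Prkch, 5033430I15Rik, Ramp3 and Prkcd (0.0175) and Ptpn3 (0.0187). The old peak lay within 3 h of the young one for 0 of these 14 genes and for 11 of the other 12, against 27.0% of all genes. Some old peaks were hardly defined. Of the 14, Wnt3 had an old amplitude of 0.016 with a peak SE of 34.8 h, and Abhd12b 0.21 with 12.5 h. Gbx2 had 1.43 with 1.17 h. The count therefore does not separate a moved peak from a weak or absent rhythm. Gbx2 in old libraries was 11.97 CPM at 46 and 7.39 CPM at 26, its highest values, and 0.293 CPM at 34. The thalamus list sum was 259, 245 and 240 CPM at 26, 46 and 50 in old libraries and at most 152 CPM at the other times, with the lowest value, 73.7 CPM, at 38. With the list as a covariate, edgeR called 0 genes for the difference, with 463 at an unadjusted p under 0.05. The covariate contains 6 of the 23 genes and follows the tested cosine in young libraries, so the loss of these calls was in large part fixed by its construction. Old libraries were also shallower, at 1.83 to 21.9 M counts (median 6.38 M).

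The other 12 called genes did not differ between old and young past the threshold, with amplitudes in old libraries that were near the young ones for some and lower for others. Dbp had an amplitude of 0.50 and a peak at 10.3 h in old libraries, Nr1d1 0.41 and 6.94 h, and Rgs16 0.49 and 5.01 h, and the differences from young did not pass (edgeR, adjusted p = 0.975, 0.841 and 0.622). Of the glucocorticoid genes, Plin4 had 1.06 and 16.9 h, Fkbp5 0.29 and 14.1 h and Tsc22d3 0.49 and 16.5 h (adjusted p = 0.642, 0.881 and 0.504). Mmp14 had an amplitude of 0.19 in old against 0.57 in young libraries (adjusted p = 0.132), Ddit4l 0.077 against 0.56 (0.359) and Hspa2 0.10 against 0.32 (0.548). Of the suprachiasmatic list, Vip and Six6 differed between old and young (adjusted p = 0.0103 and 0.0214). Vip in old libraries was 31.2 and 47.1 CPM at 30 and 34 and 27.1 and 38.5 CPM at 54 and 58, and between 10.7 and 24.5 CPM at the other times, with a peak at 9.94 h.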

How the data were processed

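Per the labels' protocols, RNA came from Trizol homogenates, and an Illumina kit for poly(A) RNA was used to build the libraries. The authors deposited a table of read counts per gene (55376 gene names, 216 libraries) and a table of CPM values of the same libraries. The deposited CPM equalled the counts scaled to each library's total within 4.98e-06 CPM. HISAT2, HTSeq and the GRCm38/mm10 build are named in the submitters' processing notes. Their versions, the gene annotation and whether counting used strand are not stated there, so overlapping genes may share reads.

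Rhythms were tested on the deposited counts with edgeR 4.0.16 (R 4.3.3): genes were kept by filterByExpr (minimum count 10), scaled by TMM, and fitted with a robust quasi-likelihood model holding a mean, cosine and sine (24 h) for each age over all 36 hypothalamus libraries. The young cosine and sine were tested together, with Benjamini-Hochberg adjustment and a threshold of 0.05. Differences between ages or tissues were tested as the difference of both terms, for tissues over the 72 young libraries. Amplitude, peak time and their SE came from least squares on log2 CPM (prior count 2). The test was run on simulated counts before use. The 66 pairs of young libraries differed by at least 4.36 times the sampling noise (chi-square per degree of freedom, mean count of 20 or more), so none was a copy. Depth was 23.3 to 29.4 M counts in young, 23.8 to 30.2 M in aged and 1.83 to 21.9 M in old libraries. Coordinates are GENCODE M21 and sequences RefSeq, GRCm38.

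Samples were grouped by their labels. The members and gene lists were chosen with earlier results of these data known. Genes named in the text are the called genes, the clock and suprachiasmatic lists, the genes of smallest p of each other list, and the 5 of smallest p in each 6 h window of peak time among genes at an unadjusted p under 0.01 and a mean of 10 CPM or more that were not called; further listed genes were named after their values were seen. Amplitudes with the thalamus covariate came from the same least squares with the list's mean added. Alternatives were other scaling factors, no filter, DESeq2 1.42.0, fits of fewer libraries, a linear trend, clock phases as levels, a replicate block and leaving out each library. Some genes of these sets are not reported by name here.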

Additional observations from a re-analysis of the deposited data

Results flagged for a closer look

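The rhythm of 12 genes named above differed between old and young hypothalamus in edgeR's quasi-likelihood test of the difference. Of these, 9 were called rhythmic in young mice and had peaks between 10 and 13: the adjusted p was 0.0103 for D130058E05Rik, Tnnt1, Gbx2 and Tcf7l2, 0.0175 for Prkch, 5033430I15Rik, Ramp3 and Prkcd, and 0.0187 for Ptpn3. Ntng1, a thalamus marker that was not called, had 0.0175. Vip and Six6 had 0.0103 and 0.0214. The summed level of the thalamus list was high at other times in old than in young libraries, and its part in these differences was examined only through the covariate fit given above.

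The rhythm of clock genes differed between young hypothalamus and the other young tissues, for 15 of 20 genes in heart, 16 in kidney and 12 in lung. Over all alternatives these counts ranged from 12 to 17, 16 to 17 and 11 to 14.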

How the results depend on the processing

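The number of rhythmic genes in young hypothalamus, 26, depended on the processing. DESeq2 called 109, among them all 26. RLE factors gave 22, no filter 16, 6 clock phases as levels 18 (12 of the 26), the 12 young libraries alone 12 (9 of the 23 tested), a linear trend 6, and the covariate of thalamus genes 0. Without the libraries at 42, 46 and 50 there were 6 and without those at 30 and 54 there were 7. A threshold of 0.1 gave 43. Leaving out 1 library gave 3 to 23. The cause was not tested. The 23 genes differing between old and young ranged from 15 (without that at 38) to 25 with 1 young library left out, and were 24 with RLE factors, 25 with no filter, 137 with DESeq2 and 0 with the covariate. The comparison of aged with young gave 0 genes, 1 with no filter, and 0 with each young library left out.

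Against heart, 328 genes became 294 with RLE factors, 138 with no filter, 497 with DESeq2 and 323 with the 2 tissues alone, and 152 to 947 with 1 library left out. Against kidney, 245 became 255, 161, 560 and 607, and 170 to 770. Against lung, 77 became 79, 66, 162 and 111, and 65 to 297. The highest of these counts came without the hypothalamus library at 46 for each tissue, and the lowest against heart without that at 22. With circadian time as a replicate block, 304, 236 and 74 genes differed from heart, kidney and lung, 18 between old and young and 0 between aged and young. The numbers are circadian times, and the labels do not say whether libraries of one time share animals; of 12 young and aged pairs, 11 correlated above 0.1 and 5 most with their own time.

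For single genes, the adjusted p of 45 genes, the 26 called and others not called, was compared in each alternative. Of these comparisons 604 kept their side of the threshold, 8 passed newly and 330 no longer passed. All 330 were of called genes, while the 604 include genes not called that stayed so. Of the peak times 134 stayed within their error and 1 moved. Depth limits the old libraries most, with a median of 6.38 M counts.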
